A study of Homo sapiens with 9 samples.

Results

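CTCF is a zinc finger protein that binds DNA at sequence-specific sites and halts cohesin, the ring complex that extrudes chromatin loops. RAD21 is a core subunit of cohesin, so a RAD21 peak at a CTCF peak marks a site where both were recovered. ZNF143 is a second zinc finger factor, known for binding at promoters and often found at CTCF sites.

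The CTCF peaks described here were found in ZNF143 knockout cells at places where wild-type cells had no peak of CTCF, RAD21 or ZNF143. Of 63420 knockout CTCF peaks on chromosomes 1 to 22 and X, 9849 shared not 1 base pair with any peak of the 3 wild-type lists, which is 15.5% (exact 95% interval 15.2 to 15.8). They are called unmatched peaks below. The other 53571 knockout CTCF peaks overlapped at least 1 wild-type peak. The peaks were chosen by the calls of these 4 lists, that is by presence in the knockout CTCF list and absence from the 3 wild-type ones, so this share is a description.

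All cells were HEC-1-B, an established human uterine adenocarcinoma line, or lines derived from it. The groups used were wild-type cells (CTCF, RAD21 and ZNF143 antibodies), cells labelled ZNF143KO (CTCF and RAD21) and cells labelled CTCF-AID, in which CTCF carries a degron that auxin (IAA) targets in cells expressing TiR1. CTCF-AID cells had CTCF and ZNF143 libraries at 0 h and 24 h of auxin. The assay was ChIP-nexus, in which exonucleases trim recovered DNA up to the crosslinked protein. Each group had 1 library, so no value below has a replicate check, and intervals cover counting error over peaks only. The labels do not give how many knockout clones were used. Loss of ZNF143 could not be checked in these files and rests on the label.

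The knockout CTCF library was the deeper one. Its genome-wide background, solved from the deposited values, was 18.9 reads per kb against 8.63 in the wild-type CTCF library. The knockout and wild-type RAD21 libraries had 26.1 and 7.81 reads per kb, the wild-type ZNF143 library 5.96 and the CTCF-AID 0 h CTCF library 12.8. The knockout lists ended at a −log10 q of 5.00 and those of wild type at 3.004 (CTCF), 3.002 (RAD21) and 3.02 (ZNF143). With the knockout CTCF list held to its strongest 52982 peaks, the length of the wild-type CTCF list, 8.22% were unmatched in place of 15.5%. The part of depth in the number of unmatched peaks was not tested.

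Unmatched peaks were weak and narrow. Their signal, the authors' fold enrichment at the summit, had a median of 8.83 (quartiles 7.53 and 10.2), against 17.8 (12.7 and 21.7) at the other knockout CTCF peaks. Median width was 42 bp (31 and 56) against 116 bp (75 and 153). A summit held a median of 13 reads against 34, and the lowest count in the list was 8. Their median −log10 q was 11.5. A −log10 q below 6 was found for 162 of them, 1.64%, against 0.185% of the other peaks, and a value below 10 for 35.3% against 4.14%.

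A subset of the other peaks served as a closer comparison. For 9054 knockout CTCF peaks the only wild-type partner was a CTCF peak, with no wild-type RAD21 or ZNF143 peak. Their median signal was 11.1 and their median width 64 bp, between the unmatched peaks and the rest.

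**Figure D1:**
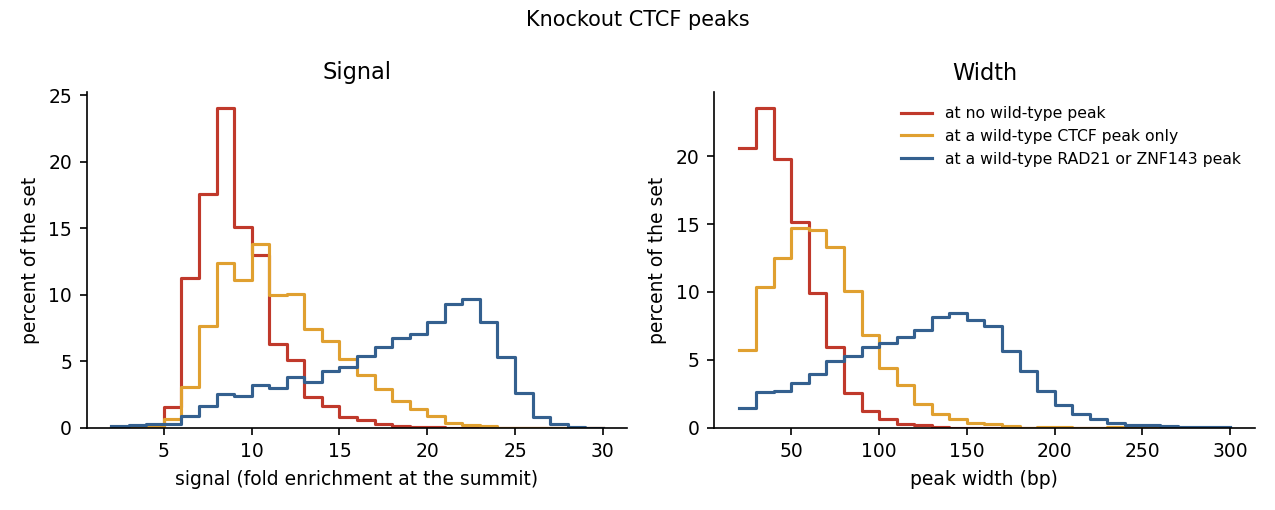
Signal (left) and width (right, axis ending at 300 bp) of knockout CTCF peaks, as percent of each set per bin, for 9849 peaks at no wild-type peak, 9054 at a wild-type CTCF peak only and 44517 at a wild-type RAD21 or ZNF143 peak. The unmatched peaks sit lowest and narrowest, with medians of 8.83 and 42 bp, and overlap widely with the peaks at a wild-type CTCF peak only.

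The strongest knockout CTCF peaks almost all had a wild-type partner. With the list cut into 10 equal groups by signal, unmatched peaks made up 54.3% of the weakest group, 48.4% of the second, 30.1% of the third, 16.2% of the fourth and 4.56% of the fifth. Groups 6 to 10 together held 112 of them, and the strongest group held 0 of 6342 peaks. Thus the 2 weakest groups carried 34.9% and 31.2% of all unmatched peaks.

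The same rule was applied to the CTCF-AID 0 h CTCF list, the only CTCF list of another line with neither knockout nor auxin. There 884 of 30374 peaks, 2.91% (2.72 to 3.11), were at no wild-type peak. At the length of the whole CTCF-AID 0 h list the order was the other way. Of the 30374 strongest knockout CTCF peaks, 79 were unmatched, which is 0.260% (0.206 to 0.324). This cut keeps the weakest CTCF-AID 0 h peaks but only the stronger knockout peaks, so the order depends on it. Among the 20000 strongest peaks there were 6 in the knockout list (0.0300%) and 5 in the CTCF-AID 0 h list (0.0250%). Among the 10000 strongest peaks of either list there were 0, which allows a share of up to 0.0300%. CTCF-AID 0 h peaks at no wild-type peak were also weak, with a median signal of 5.83 against 16.3 for the others in that list.

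**Figure D2:**
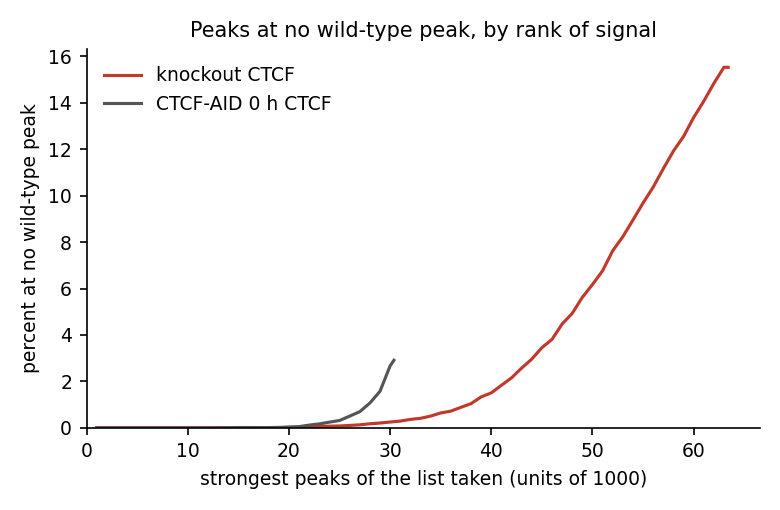
Percent of peaks at no wild-type peak (vertical axis) among the strongest peaks of a list, by how many were taken (horizontal axis, units of 1000 peaks), for the knockout and the CTCF-AID 0 h CTCF lists. Both curves lie near 0 up to 20000 peaks, and the knockout curve climbs from 0.260% at 30374 peaks to 15.5% at the whole list.

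In the reverse direction, wild-type CTCF peaks at no knockout CTCF or RAD21 peak were fewer. There were 2621 of 52982, or 4.95% (4.76 to 5.14), and they were weak too, with a median signal of 6.61 against 15.1, a median width of 35 bp against 93 and a median summit count of 8. A wild-type RAD21 peak overlapped 7.86% (6.86 to 8.96) of them and 80.0% of the other wild-type CTCF peaks. Absence of a knockout RAD21 peak was part of their choice, so a low RAD21 share is partly built in. The rule for these used 2 lists and that for unmatched peaks 3, since no ZNF143 list of the knockout was used.

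The knockout RAD21 list and the CTCF-AID lists took no part in the choice, and they divide the unmatched peaks into 4 classes. But the choice left out every site of a wild-type CTCF, RAD21 or ZNF143 peak. A low overlap with other lists of these proteins, beside all knockout CTCF peaks, is thus partly built in. The largest, 6990 peaks or 71.0% (70.1 to 71.9), overlapped neither a knockout RAD21 peak nor a CTCF-AID 0 h CTCF peak. A further 2693, or 27.3% (26.5 to 28.2), overlapped a RAD21 peak only. Just 93 (0.944%) overlapped a CTCF-AID 0 h peak only, and 73 (0.741%) overlapped both.

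Cohesin was thus recovered with CTCF at 2766 unmatched peaks, 28.1% (27.2 to 29.0), where 78.3% of all knockout CTCF peaks overlapped a knockout RAD21 peak. At the peaks with a wild-type CTCF partner only, the share was 42.2%, a difference of -14.1 percentage points (Newcombe 95% interval -15.4 to -12.7). Part of that gap went with signal. When those peaks were weighted to the signal groups of the unmatched peaks, their share was 32.1%. Within a signal group the unmatched share rose from 20.8% in the weakest to 26.0%, 33.2%, 40.4%, 46.7% and 59.1% in groups 2 to 6. The corresponding shares at peaks with a wild-type CTCF partner only were 24.4%, 29.1%, 36.8%, 47.6%, 56.4% and 62.9%. The unmatched share was the lower in each of these 6 groups, and the intervals were apart in 2 of them, the fourth and the fifth. Unmatched peaks were also the narrower in each of the 6, from 36 against 42 bp in group 1 to 73.5 against 91 bp in group 6. The part of width in this overlap was not tested.

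**Figure D3:**
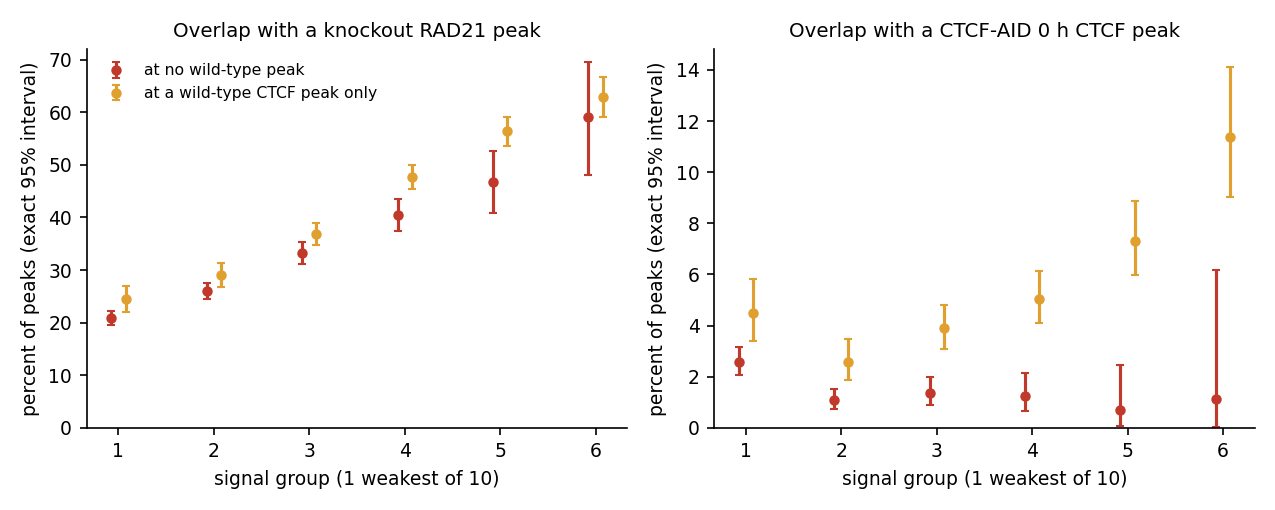
Percent of knockout CTCF peaks that overlap a knockout RAD21 peak (left) or a CTCF-AID 0 h CTCF peak (right) in signal groups 1 (weakest) to 6, with exact 95% intervals, for peaks at no wild-type peak and peaks at a wild-type CTCF peak only. RAD21 overlap climbs with signal in both sets, from 20.8% to 59.1% and from 24.4% to 62.9%, whereas CTCF-AID 0 h overlap of unmatched peaks stays at 2.59% or below.

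Unmatched peaks with RAD21 were somewhat stronger and wider than those without. Median signal was 9.51 (quartiles 8.15 and 11.2) against 8.68 (7.47 and 10.1), and median width 50 against 40 bp. The RAD21 peaks there were weak in their own list as well. Their median signal was 8.37 against 15.6 for RAD21 partners of the other knockout CTCF peaks, at a median rank percentile of 19.6. At peaks with a wild-type CTCF partner only, the RAD21 partners were about as weak, with a median signal of 8.25 at percentile 18.3. Of the 2766 RAD21 partners, 2690 (97.3%) were themselves at no wild-type peak, which the choice of the CTCF peaks makes likely. Seen from RAD21, 6773 of 56861 knockout RAD21 peaks (11.9%) were at no wild-type peak. Of these RAD21 peaks, 40.5% (39.4 to 41.7) overlapped a knockout CTCF peak, against 93.7% of the other RAD21 peaks. Absence of a wild-type CTCF peak was part of that rule, so this gap is partly built in.

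CTCF and RAD21 summits had the same median spacing as at the other sites. Over 2760 unmatched peaks with an overlapping RAD21 peak and a summit within 200 bp, the median distance was 12 bp (quartiles 5 and 24). At 46867 other sites it was 12 bp (5 and 26), and at 3816 sites with a wild-type CTCF partner only it was 11 bp (4 and 20). By signal group, the unmatched medians were 14, 13, 12, 12 and 10 bp in groups 1 to 5, against 9, 12, 12, 12 and 12 bp at the other sites. Narrow peaks that must overlap cannot have distant summits: the unmatched CTCF peaks in these pairs had a median width of 50 bp and their RAD21 partners 49 bp.

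Few unmatched peaks were found in CTCF-AID cells, which their absence from the wild-type lists makes likely. At 0 h, 166 of 9849 overlapped a CTCF peak, 1.69% (1.44 to 1.96), where 46.4% of all knockout CTCF peaks did. The share was 5.38% (4.92 to 5.86) at peaks with a wild-type CTCF partner only, and 4.00% when these were weighted to the same signal groups. The unmatched share was the lower in each of groups 1 to 6, with the intervals apart in all 6. This order is partly built in, since the compared peaks were chosen for a wild-type CTCF peak and the unmatched peaks for having none. Groups 5 and 6 held just 289 and 88 unmatched peaks, with shares of 0.692% and 1.14%. At 24 h of auxin 7 overlapped a CTCF peak, 0.0711%, where 21.3% of all knockout CTCF peaks did. ZNF143 peaks of CTCF-AID cells were met by 104 unmatched peaks at 0 h (1.06%, all knockout CTCF peaks 31.1%) and by 61 at 24 h (0.619%, all knockout CTCF peaks 10.1%).

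The 166 peaks found again in CTCF-AID 0 h stood apart from the rest in position. Their median gap to the edge of the nearest wild-type peak was 259 bp, against 11907 bp for the 9683 not found there. A wild-type peak lay within 1 kb of 62.7% (54.8 to 70.0) of them and within 100 bp of 28.9% (22.2 to 36.4). Among the 9683 these shares were 10.2% (9.56 to 10.8) and 2.17% (1.89 to 2.48). The 166 had 165 distinct CTCF-AID 0 h partners. Only 144 CTCF-AID 0 h peaks at no wild-type peak overlapped any knockout CTCF peak, so some partners themselves overlapped a wild-type peak. At such a partner the unmatched peak must lie close to a wild-type peak, so the closeness is partly built in.

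They also lay on higher local background. The background at the summit had a median of 1.23 reads against 0.520, so their signal was lower, at a median of 7.75 against 8.83, although the summits held more reads, 18 against 13. RAD21 overlapped 44.0% of them (36.3 to 51.9) and 27.8% of the others, a difference of 16.2 points (8.78 to 23.8). A CTCF-AID 0 h ZNF143 peak was present at 16.9% (11.5 to 23.4) and 0.785% (0.619 to 0.981). The part of local background in these differences was not tested, nor was that of closeness to a wild-type peak. RAD21 overlapped 43.8% (37.7 to 50.1) of the 258 unmatched peaks within 100 bp of a wild-type peak. A CTCF-AID 0 h ZNF143 peak was present at 12.0% (8.31 to 16.6) of these 258. Of the 258, 48 were themselves found again in CTCF-AID 0 h. The CTCF-AID 0 h partners of the peaks found again were weak in that list, with a median signal of 7.35 at a median rank percentile of 12.9. Summits of the 2 lists lay a median of 12.5 bp apart (5 and 52.8), against 11 bp (4 and 20) at the other peaks common to both.

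**Figure D4:**
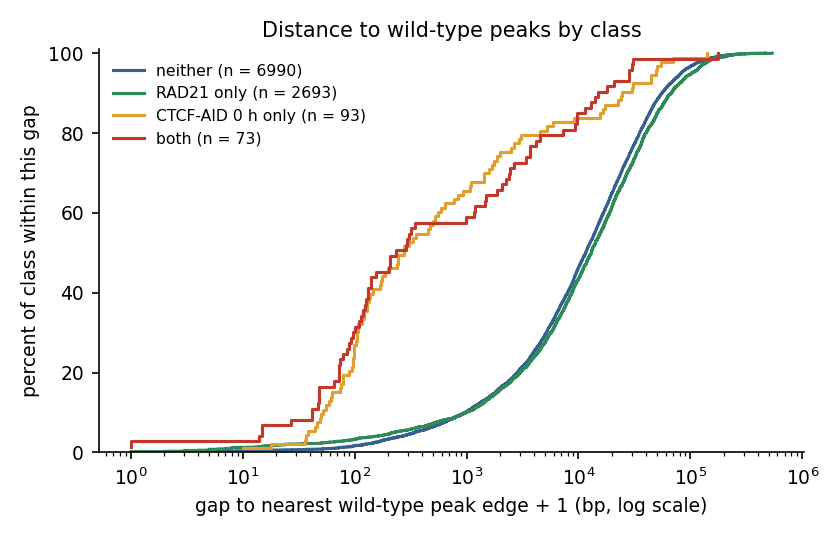
Cumulative percent of unmatched peaks (vertical axis) by gap to the edge of the nearest wild-type peak (horizontal axis, bp plus 1, log scale), for the 4 classes. The 2 classes found in CTCF-AID 0 h cells lie far to the left, with 65.6% and 58.9% within 1 kb, while the classes without it nearly coincide at 10.2% and 10.1%.

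Most unmatched peaks were far from wild-type sites. The nearest wild-type CTCF summit was a median of 15841 bp away (quartiles 5592 and 38589), the nearest RAD21 summit 16928 bp and the nearest ZNF143 summit 24905 bp. Of the unmatched peaks, 2.62% were within 100 bp of a wild-type peak edge, 11.0% within 1 kb, 46.1% within 10 kb and 96.2% within 100 kb. The nearest wild-type peak was a RAD21 peak for 47.2%, a CTCF peak for 38.8% and a ZNF143 peak for 12.7%, with ties at 1.32%.

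This spacing was close to that between any knockout CTCF peak and the next site. The nearest wild-type CTCF summit of a peak they did not overlap was a median of 13230 bp from the other knockout CTCF peaks, and 13324 bp from those with a wild-type CTCF partner only. Within 1 kb of such a summit were 7.66% of unmatched peaks, 7.34% of the other peaks and 8.34% of those with a wild-type CTCF partner only. Unmatched peaks lay a median of 85146 bp from each other, and 64.9% were alone in their bin of 100 kb.

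At the edge of the rule, values on both sides were alike. There were 68 unmatched peaks within 10 bp of a wild-type peak, 13 of them touching it, and 187 other knockout peaks that overlapped a wild-type peak by at most 10 bp. Median signal was 8.03 and 8.15, median width 33 and 35 bp, RAD21 overlap 54.4% and 52.4%, and CTCF-AID 0 h overlap 4.41% and 4.28%. The strongest touching peaks were at chr8:105995172-105995200 (signal 10.2, beside a CTCF peak), chr4:87144746-87144802 (signal 9.79, beside a RAD21 peak) and chr11:55494340-55494399 (signal 9.51, beside a RAD21 peak). The strongest peaks left out by an overlap of 1 bp each had it with a wild-type RAD21 peak. They were at chr6:154112370-154112495 (signal 13.4), chr12:22274326-22274388 (signal 13.4) and chr2:218812784-218812834 (signal 12.2).

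The share of unmatched peaks differed between chromosomes. It was highest on chromosome 13, at 22.5% (20.6 to 24.6), and lowest on chromosome 8, at 10.9% (9.72 to 12.1), with chromosomes 9 and 19 at 11.3% and 11.5%. In CTCF-AID 0 h cells the order was not the same: chromosome 13 had the lowest share of CTCF peaks at no wild-type peak, 0.955% (0.351 to 2.07). Knockout RAD21 peaks at no wild-type peak also had their highest share on chromosome 13, 18.9%, and their lowest on chromosome 8, 8.47%.

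The share of unmatched CTCF peaks moved with local background across chromosomes. At CTCF peaks shared by knockout and wild type, the median ratio of knockout to wild-type background was 2.33 on chromosome 13, the highest, 1.72 on chromosome 8 and 1.68 on chromosome 19, the lowest. Across 23 chromosomes, Pearson's r between this ratio and the share of unmatched peaks was 0.918 and Spearman's rho 0.841. Without chromosomes 8 and 19, the 2 farthest from the median ratio, r was 0.890 over 21. Chromosome 13, the highest in both ratio and share, stayed in, and no value without it is given. Both quantities come from the same 2 CTCF libraries, and chromosomes are not replicates. For RAD21 the relation was looser: its share at no wild-type peak and its own background ratio gave r = 0.675 and rho = 0.441. The ratio was highest on chromosome 13 (3.64) and lowest on chromosome 8 (2.58), but chromosome 19 combined a ratio of 3.14 with a low share of 8.69%. For CTCF-AID 0 h against wild type the values were -0.307 and -0.125, the other way. The part of background in the chromosome shares was not tested.

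**Figure D5:**
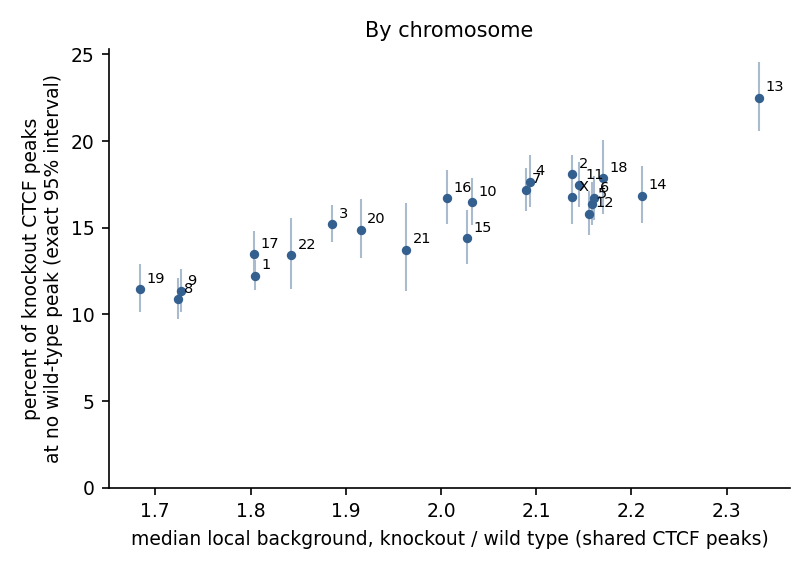
Percent of knockout CTCF peaks at no wild-type peak (vertical axis, exact 95% intervals) against the median ratio of knockout to wild-type local background at shared CTCF peaks (horizontal axis), with a point for each of 23 chromosomes. Chromosome 13 stands highest on both axes at 22.5% and 2.33, and chromosomes 8, 9 and 19 are lowest on both.

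Dense groups of unmatched peaks were rare. Only 12 bins of 100 kb held 5 or more, 69 peaks in all. The fullest was at chr7:61100001-61200000, where 9 of 10 knockout CTCF peaks were unmatched. The wild-type lists had 0 CTCF, 2 RAD21 and 0 ZNF143 peaks there, but CTCF-AID 0 h cells had 8 CTCF and 4 ZNF143 peaks, and 5 of the 9 unmatched peaks were among those found again. Next was chr14:106400001-106500000, with 7 unmatched peaks among 15 knockout and 7 wild-type CTCF peaks. All 7 were found in CTCF-AID 0 h cells and 0 of them had RAD21. Their median signal of 5.11 was low and their median local background of 2.88 reads high.

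The strongest unmatched peaks of each class were well above the median. Without RAD21 or CTCF-AID 0 h, the strongest was at chr11:22869940-22870027, with a signal of 20.9 and 30 reads at its summit. It lay 18420 bp from the nearest wild-type CTCF summit. Next came chr2:35133005-35133107 (signal 20.3) and chr7:99080883-99080930 (signal 20.03), at 128061 and 6117 bp from such a summit. These 3, taken from the class without RAD21, were in signal groups 7 and 8. In group 7, RAD21 overlapped 71.4% (47.8 to 88.7) of just 21 unmatched peaks. It overlapped 69.1% of peaks with a wild-type CTCF partner only and 97.7% of all other peaks. Group 8 held only 2 unmatched peaks, with RAD21 at 0 of them.

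With RAD21 only, the strongest was at chr4:93656349-93656441. This was the highest signal of all unmatched peaks, 21.9, and the nearest wild-type CTCF summit was 347577 bp away. Its RAD21 peak was weak and narrow, with a signal of 8.25 and a width of 24 bp, and the summits were 12 bp apart. The peak at chr13:79820884-79820963 (signal 20.1) had the strongest of these RAD21 peaks, with a signal of 16.1 and its summit 1 bp away. The third, at chr3:27270460-27270593, had a RAD21 peak of signal 8.07, 7 bp away. All 3 RAD21 peaks were at no wild-type peak.

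The strongest peaks found again in CTCF-AID 0 h cells alone were at chr12:52445569-52445629 (signal 15.1), chr14:55448631-55448704 (14.3) and chr12:34645093-34645122 (13.6). Their CTCF-AID 0 h signals were 6.38, 5.76 and 6.58, with summits 52, 16 and 4 bp away. Those with both partners were at chr2:89402229-89402319 and chr2:90136618-90136718 and at chr17:79093727-79093825. Their knockout CTCF signals were 18.7, 18.6 and 16.2, their CTCF-AID 0 h signals 7.68, 5.76 and 6.40, and their RAD21 signals 6.35, 8.89 and 8.54. The pair on chromosome 2 also lay at similar distances from a wild-type CTCF summit, 9854 and 9837 bp. Whether they are copies of a repeated sequence was not tested, since no sequence of the files' build was used. All coordinates are 1-based on hg19, and no gene annotation of that build was used.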

How the data were processed

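Peak lists of 9 ChIP-nexus libraries were used as deposited. Per the submitters' processing notes, the tools were cutadapt 2.10, Bowtie2 2.3.5.1, SAMtools 1.12, MACS2 2.2.7.1 and deepTools, and the build was hg19 (GRCh37). Settings, filters and any pooling are not given in the sources used here. The authors deposited for each peak a score (10 times the −log10 q, cut to a whole number), a signal, taken as the fold enrichment ratio at the summit, and −log10 p and −log10 q values. The signal is the authors' own value and was ranked only within a list.

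Peaks on chromosomes 1 to 22 and X were kept, and an overlap of 1 bp counted as shared. Groups came from sample titles. Whole summit counts and local background were solved from the ratio and −log10 p under a Poisson model with 1 added to both, an assumed form, which matched −log10 p within 0.002 for 100% of peaks in each list. Genome-wide background is the most frequent solved value divided by the shortest peak width, which assumes that this width is a read's footprint. Summit counts have a ceiling (50 in the knockout CTCF list).

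Intervals are exact Clopper-Pearson 95% intervals, or Newcombe intervals for differences. With 1 library per group no test between conditions was made. The members, sets and alternatives were chosen with earlier results of these data known, and the set with a wild-type CTCF partner only was added after the data were seen. Named peaks are the 3 of highest signal per class, the 3 closest on either side of the overlap rule (ties by signal) and the fullest bin of 100 kb; the second bin was chosen after its values were seen. Alternatives were 3 overlap criteria, a −log10 q of at least 10, equal list lengths and absence from wild-type CTCF alone. Gene lists and sequence content that had been planned were not analysed here, for want of an hg19 genome. Overlap calls for 750 peaks of chromosome 21 were checked against an all-pairs count (0 differences), and 0 of 4997 simulated summit counts were missed. Scripts ran in Python 3.11.15 with matplotlib 3.10.9, statsmodels 0.14.6, scipy 1.17.1, pandas 2.3.3 and numpy 2.4.6.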

Additional observations from a re-analysis of the deposited data

Results flagged for a closer look

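Outside chromosomes 1 to 22 and X, on sequences that no comparison used, 87 of 592 knockout CTCF peaks were at no wild-type peak by the same rule. That is 14.7% (exact 95% interval 11.9 to 17.8), close to the 15.5% on chromosomes 1 to 22 and X. Of these 87 peaks, 36 overlapped a knockout RAD21 peak, and the median signal of the 87 was 6.90. The RAD21 share over all 592 peaks is not given here, so the count of 36 is not read further. On chromosomes 1 to 22 and X, 2766 of 9849 unmatched peaks (28.1%) overlapped a knockout RAD21 peak.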

How the results depend on the processing

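No paired analysis was possible because each group had 1 library and the labels give no replicate numbers. The signal and width differences stayed negative under each alternative, from -9.31 to -3.58 and from -76 to -66 bp. The other results are shares and distances, which have no sign to change. Of 56 alternative values of 8 results, 18 stayed within the main value's interval and 38 moved, and the cause was not tested unless stated. Depth and the lowest −log10 q both differed between the wild-type and knockout lists, and their part in these values was not tested.

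A reciprocal overlap of 50% gave 21.9% unmatched peaks, of which 25.5% had RAD21, 2.27% CTCF-AID 0 h and 1.09% both. Median signal then differed from the other peaks by -9.08, the wild-type CTCF summit lay 10183 bp away and the RAD21 summit 11 bp. Counting peaks within 100 bp as shared gave 15.1% unmatched and 1.43% with CTCF-AID 0 h. Within 1 kb the values were 13.8%, 0.913% with CTCF-AID 0 h, 0.479% with both, a signal difference of -8.82 and 18574.5 bp. At a −log10 q of at least 10 they were 11.0% unmatched, 21.5% with RAD21, -8.43 and 16668 bp. With knockout lists at wild-type length they were 8.22% unmatched, 25.2% with RAD21, 1.31% with CTCF-AID 0 h, 0.505% with both, -7.95 and 19882 bp. Absence from wild-type CTCF alone, which by construction adds peaks at wild-type RAD21 or ZNF143 sites, gave 21.6% unmatched, 44.7% with RAD21, 3.46% with CTCF-AID 0 h, 2.58% with both, a signal difference of -9.31 and a width difference of -76 bp.

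At the CTCF-AID 0 h list's length, chosen after the data were seen, 0.260% or 79 peaks were unmatched. Of these 63.3% had RAD21, 2.53% CTCF-AID 0 h and 2.53% both. Their signal and width differences were -3.58 and -66 bp, the wild-type CTCF summit lay 31431 bp away and the RAD21 summit 8 bp.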
